A study of Mus musculus with 20 samples.

Results

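The transcripts described here are those of 9 heme synthesis genes, *Alas1*, *Alas2*, *Alad*, *Uros*, *Urod*, *Cpox*, *Ppox*, *Fech* and *Slc25a37*, in whole bone marrow of mice. They were chosen by name, with earlier results of these data known, and all 9 were found among the 37620 genes of the count table by symbol and Ensembl identifier. RNA came from 20 recipient mice, in 4 groups of 5. Every recipient had been transplanted with marrow from transgenic donors carrying rtTA, which turns on a transgene when doxycycline is eaten, and had engrafted for more than 6 weeks before induction. All mice ate doxycycline chow (625 ppm) for 7 days, which induced either U2AF1(S34F), a mutant of the splicing factor that binds the end of introns, or U2AF1(WT). In the last 5 of these days they were given intravenous sudemycin D6, a compound that binds the splicing factor SF3B1, or vehicle. Donor marrow was pooled before transplantation, so recipients of a genotype share donors and are replicates of the treatment rather than of independently bred donors.

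Heme is built by a chain of enzymes that begins and ends in mitochondria. ALAS, the rate-limiting enzyme, exists as a housekeeping form (*Alas1*) and an erythroid form (*Alas2*, on the X chromosome), and the later steps run through ALAD, the porphyrin enzymes and FECH, which inserts iron. SLC25A37 (mitoferrin 1) carries iron into the mitochondria of erythroid precursors, the cells that make most of the heme in marrow.

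Gene counts summed to between 41145892 and 62138138 per mouse. Values are given as CPM, counts scaled to the library size with TMM factors, and all 9 transcripts passed the filter on low counts in every comparison. A fold change is on the log2 scale, and a gene was called at an FDR under 10% in edgeR's quasi-likelihood test with Benjamini-Hochberg adjustment over all genes tested. Neutrophil transcripts led these marrows, with a summed level of 14 markers between 62126 and 144106 CPM, while 19 erythroid markers summed to between 90.2 and 536 CPM. All U2AF1(WT) mice had at least 39145 *Xist* counts and at most 4 counts on 4 Y-linked genes, and all U2AF1(S34F) mice had at most 8 *Xist* counts and at least 10270 Y-linked counts, so genotype cannot be told apart from the sex of the marrow in any comparison of genotypes.

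Among the 9 genes, *Alas1* had the most reads per length and *Uros* the fewest. In U2AF1(WT) mice on vehicle, the level per kilobase of annotated exon was 45.3 ± 5.07 CPM per kb (SD, n = 5) for *Alas1*, 29.0 ± 4.30 for *Slc25a37* and 14.7 ± 1.91 for *Ppox*. *Fech* (10.6 ± 1.36 CPM per kb), *Urod* (10.5 ± 1.23), *Alad* (9.02 ± 1.12) and *Alas2* (7.99 ± 4.38) followed, and *Cpox* (5.80 ± 0.940) and *Uros* (2.43 ± 0.295) were lowest. The ranges over mice did not overlap between *Alas1*, *Slc25a37* and *Ppox*, nor between *Cpox* and *Uros*, and they overlapped between the other neighbours in this order. Per kilobase, *Alas1* exceeded *Alas2* in every mouse, by 2.24 to 13.5 times, with group medians between 4.30 and 6.33 times. In the build of the counts (mm9), the gene bodies of *Uros* (chr7:140877926-140901755), *Urod* (chr4:116662570-116667018), *Ppox* (chr1:173206121-173211317) and *Slc25a37* (chr14:69859908-69903160) are on the minus strand and that of *Cpox* (chr16:58670321-58680504) on the plus strand.

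**Figure D1:**
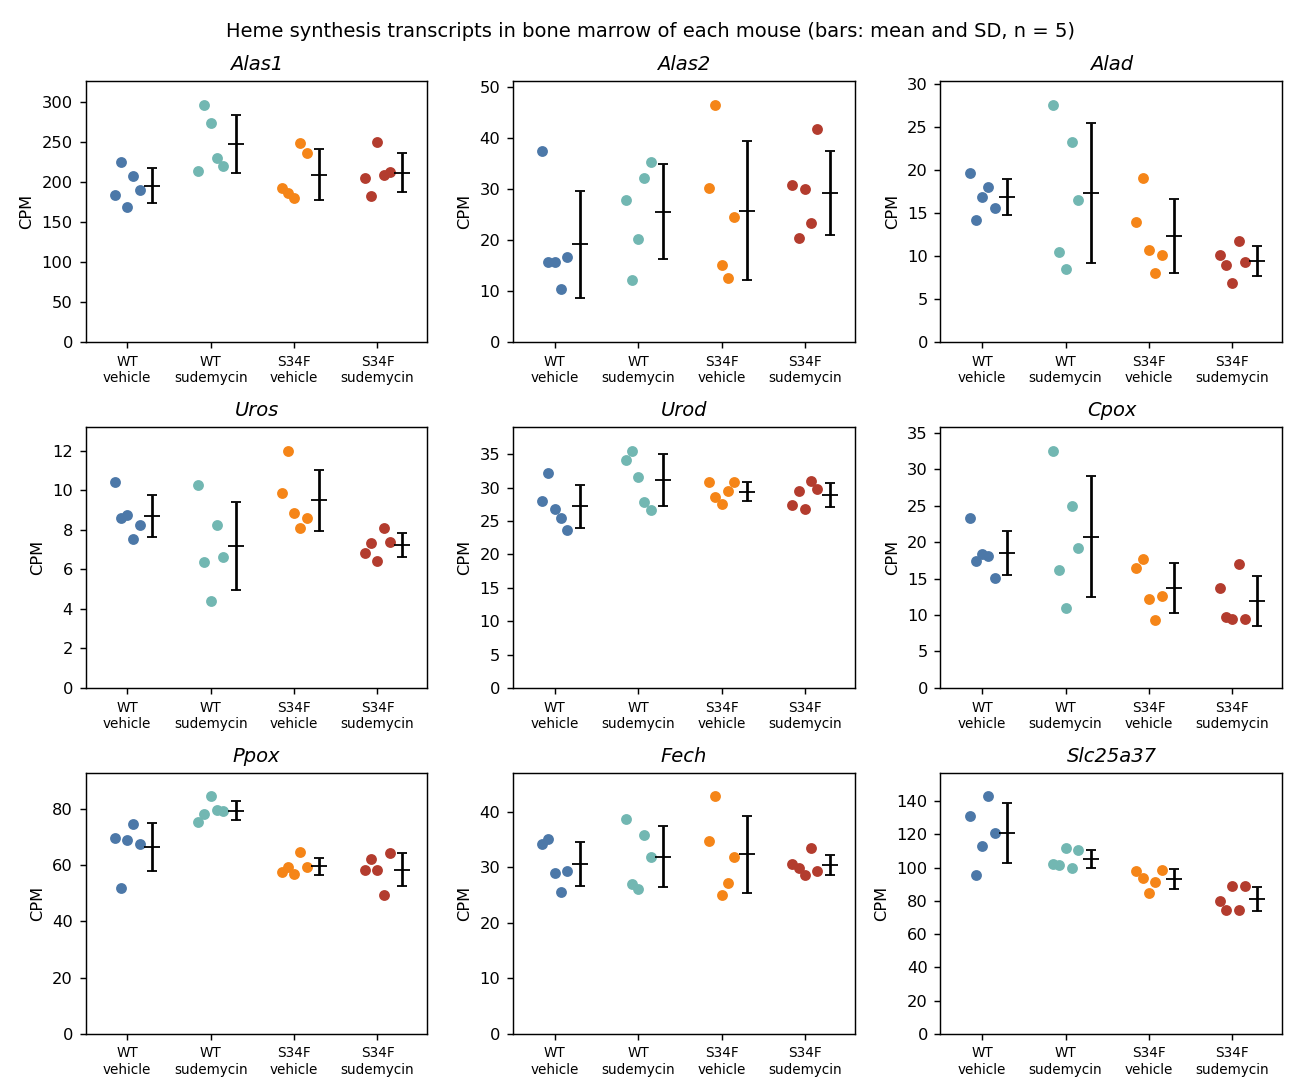
CPM of the 9 transcripts (y axis, from 0) in each mouse (points) of the 4 groups (x axis), with the group mean and SD (n = 5) beside the points. *Alad*, *Cpox* and *Slc25a37* were lowest on average in U2AF1(S34F) mice on the drug, and *Ppox* was highest in U2AF1(WT) mice on the drug.

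Under vehicle, U2AF1(S34F) marrow held less *Alad*, *Cpox* and *Slc25a37* RNA than U2AF1(WT) marrow, and none of the 9 transcripts was called higher. That is 3 of 9 called, beside 39.5% of all 14817 genes tested (19.8% called lower), so the share of the 9 is near that of all genes. Their median log2 fold change was 0.06, beside 0.0021 over all genes. When both groups received sudemycin D6, 4 of 9 transcripts (*Alad*, *Cpox*, *Ppox* and *Slc25a37*) were lower with U2AF1(S34F), beside 36.8% of 14677 genes called (19.6% lower), with a median of -0.23 beside -0.03. With the mutation and the drug together, set against U2AF1(WT) mice on vehicle, 4 of 9 (*Alad*, *Uros*, *Cpox* and *Slc25a37*) were lower, beside 50.2% of 14761 genes called (25.1% lower), with a median of -0.19 beside -0.0032.

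The drug alone was followed by fewer calls. In U2AF1(S34F) mice, *Uros* was the 1 of 9 transcripts called lower with sudemycin D6 by edgeR, beside 10.8% of 14714 genes called (5.85% lower). DESeq2 also called *Slc25a37* lower (adjusted p = 0.0934, beside 0.105 in edgeR). The median of the 9 was -0.09, beside -0.0091 over all genes. In U2AF1(WT) mice, 0 of 9 were called by edgeR, with 3 at an unadjusted p under 0.05 and 0 by DESeq2, beside 3.07% of 14763 genes, with a median of 0.15 beside 0.0040. The interaction of genotype and drug, fitted on all 20 mice, was called for 0 of 9 by edgeR (1 at an unadjusted p under 0.05, 0 by DESeq2), beside 0.013% of 15392 genes. These comparisons share groups and are not independent of each other. In bulk marrow, fewer cells of a type and less RNA per cell cannot be told apart.

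**Figure D2:**
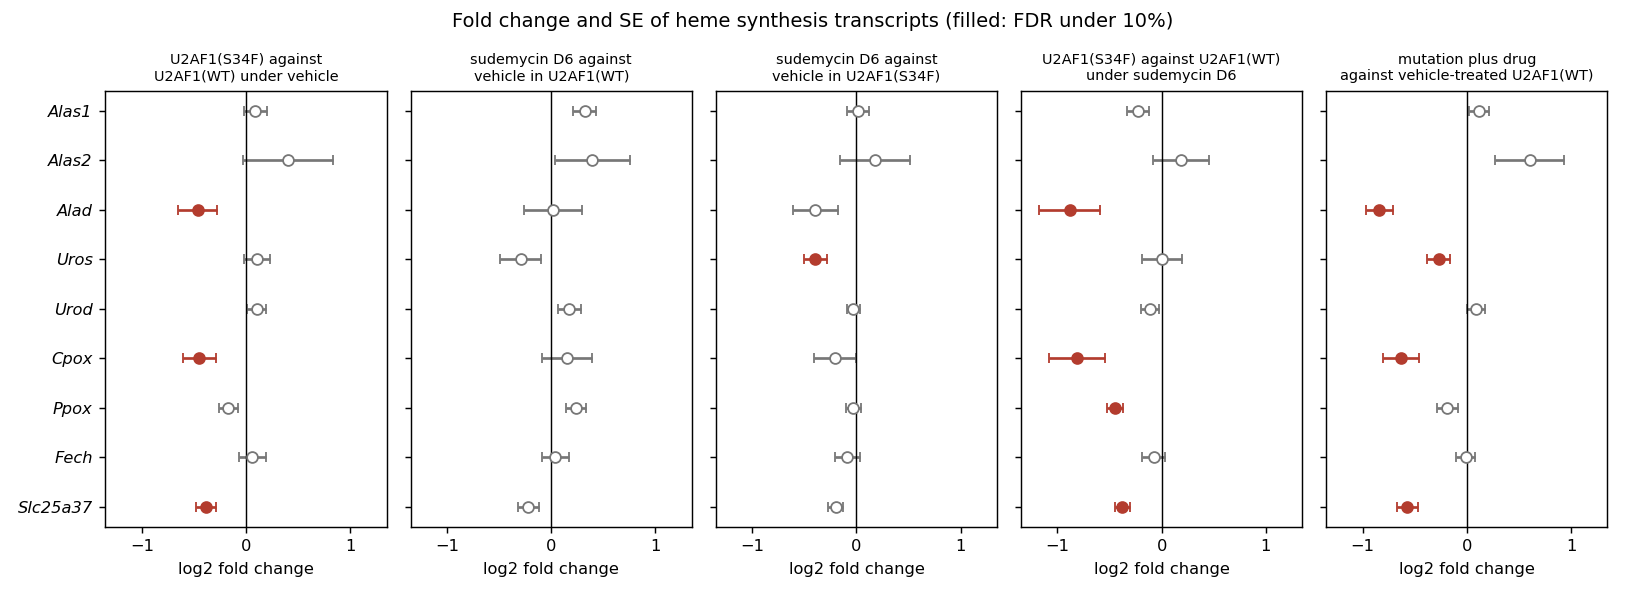
Log2 fold change (x axis, with SE as bars) for each of the 9 transcripts (y axis) in the 5 comparisons, n = 5 mice per group. Filled points passed an FDR under 10% in edgeR, and all of them lie below 0.

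*Alas1* encodes the housekeeping form of the rate-limiting enzyme. It measured 184, 225, 169, 208 and 190 CPM in U2AF1(WT) mice on vehicle and 214, 297, 274, 231 and 221 CPM after sudemycin D6. The drug-treated mice were higher on average but the groups overlapped, and the log2 difference of 0.32 ± 0.11 (SE) had an adjusted p of 0.215 in edgeR. In U2AF1(S34F) mice, *Alas1* was at 192, 187, 180, 249.5 and 237 CPM under vehicle and at 205, 182, 250, 209 and 213 CPM with the drug. Those groups overlapped almost wholly, with a log2 difference of 0.01 ± 0.11, and the interaction of -0.32 ± 0.16 had an adjusted p of 0.683 in edgeR.

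*Alas2*, the erythroid form, varied widely between mice of each group. Its level was 37.5, 15.7, 15.7, 10.3 and 16.7 CPM in U2AF1(WT) mice on vehicle, 27.8, 12.3, 20.3, 32.2 and 35.2 CPM in U2AF1(WT) mice on the drug, 30.2, 46.6, 15.1, 12.6 and 24.6 CPM in U2AF1(S34F) mice on vehicle, and 30.8, 20.4, 29.9, 23.3 and 41.8 CPM in U2AF1(S34F) mice on the drug. All 4 groups overlapped and *Alas2* was called in no comparison of the 5. The gene is X-linked, and the genotypes differ in the sex of the marrow. Mouse 1 of the vehicle-treated U2AF1(WT) group stood far above the others of its group. With that mouse, *Alas2* was 0.60 ± 0.33 higher on the log2 scale in sudemycin-treated U2AF1(S34F) than in U2AF1(WT) mice on vehicle (adjusted p = 0.171, edgeR). Without it the difference was 0.999, with an adjusted p of 0.00435 in edgeR, so that 1 mouse decides this call.

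*Alad* encodes the enzyme that joins aminolevulinic acid into the first ring. Its level was 19.6, 14.3, 16.8, 18.1 and 15.6 CPM in U2AF1(WT) mice on vehicle and 10.2, 8.97, 6.89, 11.7 and 9.35 CPM in U2AF1(S34F) mice on the drug. Every mouse of the second group was below every mouse of the first, a 1.79-fold lower level (log2 -0.84 ± 0.13, adjusted p = 0.000412, edgeR). U2AF1(S34F) mice on vehicle lay between, at 14.0, 19.0, 10.7, 7.99 and 10.1 CPM. They overlapped their U2AF1(WT) counterparts, and the difference of -0.46 ± 0.19 (adjusted p = 0.0772, edgeR) lost its call when any 1 of 6 of the 10 mice was left out, with adjusted p up to 0.171, with no filter on low counts (0.115), with junction reads summed per gene (0.124) and in 1 model of all mice (0.218). U2AF1(WT) mice on the drug spread widely, at 27.6, 10.5, 8.55, 23.2 and 16.6 CPM, and exceeded U2AF1(S34F) mice on the drug by 0.88 ± 0.29 on the log2 scale (adjusted p = 0.0400, edgeR), with overlap.

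*Uros* encodes the synthase that closes the porphyrin ring. It was at 9.88, 12.002, 8.84, 8.10 and 8.58 CPM in U2AF1(S34F) mice on vehicle and at 6.84, 7.33, 6.43, 8.09 and 7.40 CPM in sudemycin-treated ones. The groups did not overlap, though their closest mice were at 8.10 and 8.09 CPM, and the log2 difference was -0.39 ± 0.11 (adjusted p = 0.0636, edgeR). This call was lost when any 1 of 5 of the 10 mice was left out (adjusted p up to 0.141), with junction reads summed per gene (0.145) and in 1 model of all mice (0.226). In U2AF1(WT) mice the drug difference was -0.30 ± 0.20 (adjusted p = 0.561, edgeR). It ranged from -0.46 without mouse 6 to -0.16 without mouse 9 of the drug group, and was -0.07 with junction reads. The interaction was -0.11 ± 0.23 (adjusted p = 0.957), so a difference between genotypes was not shown. U2AF1(S34F) mice on the drug were also 0.27 ± 0.11 below U2AF1(WT) mice on vehicle on the log2 scale (adjusted p = 0.0625, edgeR), a call lost without any 1 of 4 of the 10 mice. It was also lost with no filter on low counts (adjusted p = 0.131), with junction reads summed per gene (0.180) and in 1 model of all mice (0.208). *Urod*, the next enzyme, was at group means between 27.2 and 31.2 CPM and was called in none of the 5 comparisons.

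*Cpox* encodes the coproporphyrinogen oxidase of mitochondria. It was at 23.3, 17.5, 18.3, 18.1 and 15.1 CPM in U2AF1(WT) mice on vehicle and at 16.5, 17.7, 12.2, 9.34 and 12.6 CPM in U2AF1(S34F) mice on vehicle. The mutant group was lower with overlap (log2 -0.45 ± 0.16, adjusted p = 0.0476, edgeR), and the call was lost without mouse 1 of the U2AF1(WT) group (adjusted p = 0.129) and in 1 model of all mice (0.184). With sudemycin D6 the levels were 32.6, 16.2, 10.9, 24.9 and 19.2 CPM in U2AF1(WT) mice and 13.7, 9.80, 9.46, 17.1 and 9.43 CPM in U2AF1(S34F) mice, a difference of -0.81 ± 0.27 (adjusted p = 0.0416, edgeR). That call was lost with no filter on low counts (adjusted p = 0.102) and with junction reads summed per gene (0.141). Against U2AF1(WT) mice on vehicle, the U2AF1(S34F) mice on the drug were 1.55-fold lower (log2 -0.63 ± 0.17, adjusted p = 0.0106, edgeR).

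*Ppox*, which encodes the enzyme that makes protoporphyrin, was at 75.4, 78.4, 84.5, 79.6 and 79.2 CPM in U2AF1(WT) mice on the drug. U2AF1(S34F) mice on the drug had 58.2, 62.3, 58.3, 49.2 and 64.3 CPM. No mouse of either group reached the range of the other, and the level was 1.36-fold lower with U2AF1(S34F) (log2 -0.44 ± 0.08, adjusted p = 0.00173, edgeR). Under vehicle the U2AF1(WT) mice had 69.6, 51.8, 68.9, 74.6 and 67.5 CPM and the U2AF1(S34F) mice 57.6, 59.3, 56.9, 64.9 and 59.3 CPM. Mouse 2 was the lowest of the U2AF1(WT) group, and the genotype difference of -0.17 ± 0.09 (adjusted p = 0.174, edgeR) became -0.24 without it (adjusted p = 0.00918). In U2AF1(WT) mice every sudemycin-treated mouse exceeded every vehicle-treated mouse, by 0.24 ± 0.09 on the log2 scale, but the adjusted p of 0.286 in edgeR missed the threshold. The *Ppox* interaction of -0.28 ± 0.12 had an unadjusted p of 0.0264 and an adjusted p of 0.595 in edgeR.

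*Fech*, the ferrochelatase, stayed at group means between 30.4 and 32.3 CPM, and its log2 differences in the 5 comparisons lay between -0.09 and 0.06, each with an SE of at most 0.13. *Slc25a37*, the iron carrier, was lower with U2AF1(S34F) under vehicle and under the drug. Its level was 131, 95.8, 113, 143 and 121 CPM in U2AF1(WT) mice on vehicle, 102, 101, 112, 100.03 and 111 CPM in U2AF1(WT) mice on the drug, 98.0, 93.5, 84.6, 91.1 and 98.7 CPM in U2AF1(S34F) mice on vehicle, and 79.7, 74.3, 88.7, 74.7 and 88.9 CPM in U2AF1(S34F) mice on the drug. U2AF1(S34F) mice on the drug were below all mice of both U2AF1(WT) groups. The genotype difference was -0.39 ± 0.10 under vehicle (adjusted p = 0.0101, edgeR) and -0.38 ± 0.07 with the drug (adjusted p = 0.00360), and the interaction was 0.00 ± 0.13. Against U2AF1(WT) mice on vehicle, mutation plus drug gave a 1.49-fold lower level (log2 -0.57 ± 0.10, adjusted p = 0.000778, edgeR). Within U2AF1(S34F) mice the drug difference was -0.20 ± 0.07 (adjusted p = 0.105, edgeR). The *Slc25a37* calls in these 3 comparisons were kept without any 1 mouse.

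Genes around the pathway were counted in the same fits, beside 39.5% of all genes called under vehicle, 36.8% under sudemycin D6 and 50.2% with mutation plus drug. Their counts were near or below these shares and are no result about the lists. Of 19 heme and iron transport genes tested, 5 were higher and 1 lower with U2AF1(S34F) under vehicle, 2 higher and 1 lower under sudemycin D6, and 5 higher and 3 lower with mutation plus drug. *Trfr2*, the erythroid transferrin receptor 2, fell by 1.54 on the log2 scale with mutation plus drug (adjusted p = 0.000531, edgeR). Of 16 iron-sulfur cluster and regulation genes, 4 were higher and 1 lower under vehicle, and 5 higher and 1 lower with mutation plus drug, among them *Atpif1* (0.39, adjusted p = 0.00413, edgeR). Of 7 heme degradation and iron storage genes, 2 were higher and 1 lower with U2AF1(S34F) under vehicle. *Fth1*, the ferritin heavy chain that stores iron, fell from 538 ± 80.4 to 281 ± 17.2 CPM (SD, n = 5; log2 -0.95, adjusted p = 5.83e-05, edgeR), and *Blvrb*, a biliverdin reductase, rose by 0.91 (adjusted p = 8.53e-05).

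All 19 erythroid markers passed the filter on low counts. With mutation plus drug 16 of 19 were called lower, beside 25.1% of all genes, and between genotypes under sudemycin D6 10 of 19 were, beside 19.6%. With the drug in U2AF1(S34F) mice 6 of 19 were lower, beside 5.85%. Under vehicle 1 of 19 was lower with U2AF1(S34F), below the 19.8% of all genes. With the drug in U2AF1(WT) mice 0 of 19 were called, beside 3.07%, with a median log2 fold change of -0.04. The interaction of genotype and drug was called for 0 of 19, beside 0.013%, with a median of -0.78. A drug effect that differs between genotypes was therefore not shown for these markers. The median log2 fold change of the 19 markers was -1.06 with mutation plus drug and -1.02 between genotypes under the drug. The marker sum was between 230 and 384 CPM in U2AF1(WT) mice on vehicle, 130 and 536 CPM in U2AF1(WT) mice on the drug, 148 and 459 CPM in U2AF1(S34F) mice on vehicle, and 90.2 and 183 CPM in U2AF1(S34F) mice on the drug. *Car1*, an erythroid carbonic anhydrase, fell from 41.8 ± 9.32 to 11.02 ± 5.75 CPM (SD, n = 5) with mutation plus drug (adjusted p = 0.00215, edgeR). *Gata1* and *Klf1*, transcription factors of erythroid cells, fell by 1.31 and 1.43 on the log2 scale (adjusted p = 0.000382 and 0.000863, edgeR), 2 of 7 factors called lower and 1 called higher, of 9. Globin transcripts did not share one direction. Of 4 tested, 2 fell between genotypes under the drug, where their median log2 fold change was -0.63. With mutation plus drug 1 fell while the median was 0.12. The median globin sum was 489 CPM (316 to 655) with mutation plus drug, beside 299 CPM (252 to 710) in U2AF1(WT) mice on vehicle, and the ranges overlapped. The part of erythroid cells in the lower *Alad*, *Cpox*, *Uros* and *Slc25a37* levels was not tested.

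Markers of other cells were counted with mutation plus drug, where 50.2% of all genes were called, 25.1% lower and 3706 of 14761 higher. In this comparison 10 of 10 B cell markers, 6 of 8 megakaryocyte markers and 6 of 8 stem and progenitor markers were lower, and 7 of 14 neutrophil markers were higher. Of 14 monocyte and macrophage markers 2 were higher and 4 lower, and of 8 T and NK cell markers 2 were higher and 5 lower. The share of monocyte and macrophage markers called was below that of all genes. The neutrophil marker sum was between 66777 and 75025 CPM in U2AF1(WT) mice on vehicle and between 88648 and 144106 CPM in U2AF1(S34F) mice on vehicle, without overlap. *S100a8* (means 10888 and 26163 CPM) and *S100a9* (22270 and 38692.5 CPM) made up much of this difference. In that comparison 7 of 14 neutrophil markers were called higher and 0 lower, beside 2921 of 14817 genes called higher and 39.5% called in either direction. *Alad*, *Cpox* and *Slc25a37* were lower in it. The part of other cells in the heme synthesis levels was not tested.

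The 9 transcripts did not vary together from mouse to mouse. After the mean of each group was removed, log2 CPM over the 20 mice correlated strongly among *Alad*, *Uros*, *Cpox* and *Fech*, with Pearson r between 0.77 (*Cpox* with *Fech*) and 0.91 (*Alad* with *Cpox*, Spearman rho 0.89). These are descriptions over mice that share libraries and scaling. The same 4 transcripts followed the summed erythroid markers, with r of 0.93 for *Alad*, 0.87 for *Uros* and *Cpox* and 0.86 for *Fech*. *Slc25a37* (r = -0.06), *Ppox* (-0.21) and *Urod* (0.07) did not, and *Alas1* ran against the markers (-0.60) and against *Alad* (-0.70, rho -0.58). *Ppox* and *Slc25a37* correlated with each other (r = 0.70, rho 0.53).

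**Figure D3:**
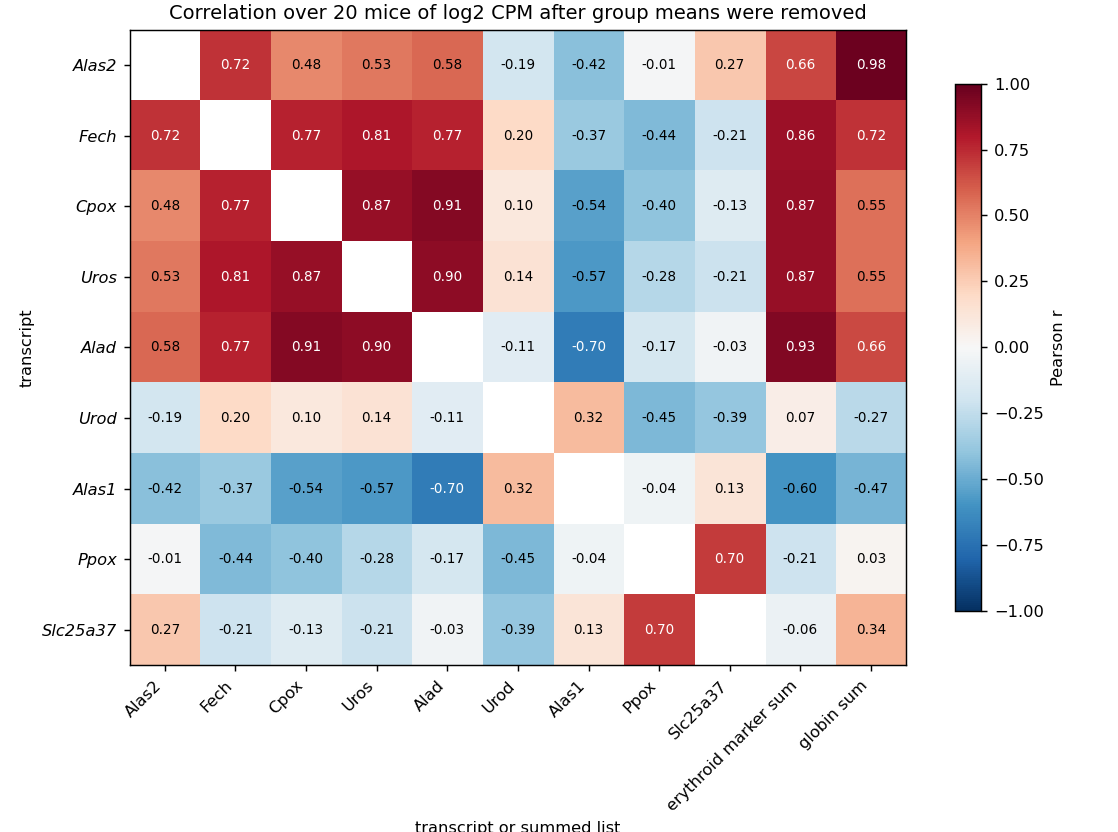
Pearson r (colour and printed value) over 20 mice between the 9 transcripts (rows and columns) and with the summed CPM of the 19 erythroid markers and of the globin genes (the last columns), after group means were removed. *Alad*, *Uros*, *Cpox* and *Fech* are positive with each other (0.77 to 0.91), and *Alas2* is nearest to the globin sum (r = 0.98).

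*Alas2* followed the globins more than the other erythroid markers. Of 9769 genes with a mean of at least 5 CPM, the 4 most like *Alas2* were *Hbb-b1* (r = 0.98, rho 0.97), *Hba-a1* (0.97), *Bpgm* (0.95) and *Hba-a2* (0.95), which include adult hemoglobin chains and the red cell enzyme that makes bisphosphoglycerate. Its r with the globin sum was 0.98 and with the erythroid marker sum 0.66. The 5 genes most like *Alas1* were *Ankrd27* (0.91), *Ddx11* (0.91), *Gfi1* (0.91), *Pask* (0.90) and *Mlec* (0.90). *Gfi1* is a transcription factor of granulocyte development.

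The stretch upstream of the start of *Alas2* and *Cpox* is shown because both hold a match to the GATA motif, the sequence that GATA factors bind. *Cpox* was called lower with mutation plus drug, as was *Gata1*. *Alas2* was not lower there: its log2 difference was 0.60 (adjusted p = 0.171, edgeR), and it was called in no comparison. A link between *Gata1* and these levels was not tested. Sequences are from RefSeq (GRCm38.p6, a later build than that of the counts), 250 bases ending at the base before the transcript start, 5′ to 3′, with matches on either strand in capitals. The letters searched were AGATAA and AGATAG, and also TGATAA and TGATAG. *Cpox* lies on chr16:58669958-58670207 (plus strand) and *Alas2* on chrX:150547167-150547416 (plus strand).
Alas2: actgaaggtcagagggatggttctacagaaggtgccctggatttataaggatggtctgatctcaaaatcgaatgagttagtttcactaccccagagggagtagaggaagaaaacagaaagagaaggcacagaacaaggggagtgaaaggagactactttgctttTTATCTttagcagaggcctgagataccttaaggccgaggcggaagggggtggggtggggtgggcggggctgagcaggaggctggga
Cpox: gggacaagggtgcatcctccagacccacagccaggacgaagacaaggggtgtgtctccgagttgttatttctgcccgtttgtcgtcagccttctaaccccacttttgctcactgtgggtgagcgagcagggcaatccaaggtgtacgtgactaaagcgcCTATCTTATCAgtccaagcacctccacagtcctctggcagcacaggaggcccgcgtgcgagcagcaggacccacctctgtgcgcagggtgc
The *Alas2* match begins 86 bases before the start, and the 2 overlapping *Cpox* matches begin 91 and 86 bases before it. Of the 7 genes of the 9 whose starts were used, 3 held a match (*Alas2*, *Cpox* and a downstream start of *Uros*), beside 29.7% of 27025 genes. Counted by start, 3 of 10 starts (30%) held a match, near the 26.5% of all 32851 starts. *Alad*, which like *Cpox* was called lower, held none before the annotated starts used. The stretch before its unannotated inner donor, described below, was not searched. A match describes these letters only.

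Splicing of the 9 genes was read from junction reads, as the usage of a junction, its reads out of all reads that share its donor (the last exon base before an intron) or acceptor (the first base of the next exon). Retained introns leave no junction read, so they were not measured. A junction was called at an FDR under 10% with a difference in usage over 1 percentage point. In 8 of the 9 genes, 34 to 45 junction and site pairs were tested per comparison. *Cpox* had no pair that met the limits on reads per site and usage. Of the pairs tested, 0 were called in each of the 5 comparisons. Between 4 and 9 had an unadjusted p under 0.05, and 0 were called by limma or by edgeR with 1 coefficient per mouse. Over all genes, 2.6%, 0.677%, 0.776%, 2.33% and 5.03% of junction and site pairs were called, for the genotypes under vehicle, the drug in U2AF1(WT), the drug in U2AF1(S34F), the genotypes under the drug, and mutation plus drug. The lowest adjusted p for the heme synthesis genes was 0.151. The *Alad* and *Alas2* sites described next held 18 to 227 and 41 to 404 reads per mouse, so smaller differences were not detectable there.

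Alternative junctions at 3 sites, in *Alad*, *Alas2* and *Alas1*, are described, and they were chosen after their values were seen. They were not the only alternative junctions. *Ppox*, for example, had 9 to 13 tested pairs per comparison, which are not described. Coordinates are those of NCBIM37 (mm9). In *Alad* (chr4:62170203-62180952, minus strand), the acceptor of exon 2 was joined to the annotated donor of exon 1, to a second annotated donor nearby, and to a donor 3246 bases further inside the gene that is not in the annotation used. The sequences at both donors and at the acceptor are shown, with the GT that follows each donor, and the last 3 intron bases before the acceptor, in capitals.
Annotated donor, chr4:62180879-62180908: cgagcagcgtccttgGTacgtgagcaggcg
Inner donor, chr4:62177633-62177662: tgctgtaggactttgGTgagtagtgccccc
Shared acceptor, chr4:62175292-62175314: tttcctggtgccccctaCAGagc
In U2AF1(WT) mice on vehicle the annotated donor took 47.0% ± 6.96 of the reads (SD, n = 5), and the second annotated donor took at most 17.6% in any of the 20 mice. The inner donor took 49.2%, 35.8%, 47.4%, 54.6% and 50.5% of the reads at the acceptor in U2AF1(WT) mice on vehicle, from 81 to 141 reads per mouse. It took 19.1%, 42.2%, 11.1%, 43.1% and 20.7% in U2AF1(S34F) mice on the drug, from 18 to 68 reads. The groups overlapped. The mean fell by 20.2 percentage points, which had an unadjusted p of 0.0172 and an adjusted p of 0.181 in the quasi-binomial test, so it was not called. U2AF1(S34F) mice on vehicle (39.6% ± 14.4, SD, n = 5) and U2AF1(WT) mice on the drug (42.1% ± 10.6) lay between. Mouse *Alad* is known to have a housekeeping and an erythroid first exon, and whether the inner donor belongs to the latter was not tested. Over the 20 mice, with group means removed, usage of the inner donor had an r of 0.19 (rho 0.15) with the erythroid marker sum and of 0.13 (rho 0.15) with the *Alad* level.

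In *Alas2* (chrX:146981918-147005181, plus strand), exon 2 was joined to either of 2 annotated acceptors of exon 3 that lie 45 bases apart, a difference of 15 codons. They are shown because the study saw more T before the AG at acceptors of exons that U2AF1(S34F) marrow skipped more often. The last 3 intron bases are in capitals.
Upstream acceptor, chrX:146987482-146987504: tactctcttaccttgtgTAGact
Downstream acceptor, chrX:146987527-146987549: ttgtcctttcatgctgtCAGaac
The upstream acceptor has a T and the downstream acceptor a C before the AG. Usage of the downstream acceptor was 14.7%, 12.9%, 5.63%, 14.6% and 6.57% in U2AF1(WT) mice on vehicle and 12.2%, 14.4%, 18.2%, 5.00% and 30.2% in U2AF1(S34F) mice on vehicle. Mouse 11 gave the highest value, the groups overlapped, and the difference of 5.11 percentage points had an adjusted p of 0.552 in the quasi-binomial test. With sudemycin D6 the means were 9.57% ± 4.87 (SD, n = 5) and 13.4% ± 3.92 (adjusted p = 0.569).

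In *Alas1* (chr9:106135786-106150457, minus strand), a junction that skips exon 5, of 223 bases, is annotated only in a transcript marked for nonsense-mediated decay. It took 2.79% ± 1.11 of reads at its donor in U2AF1(WT) mice on vehicle, 1.82% ± 1.64 in U2AF1(WT) mice on the drug, 3.04% ± 0.879 in U2AF1(S34F) mice on vehicle and 2.54% ± 0.699 in U2AF1(S34F) mice on the drug (SD, n = 5). The ranges over mice overlapped between all groups, and the adjusted p was at least 0.566 in the quasi-binomial test of each comparison.

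**Figure D4:**
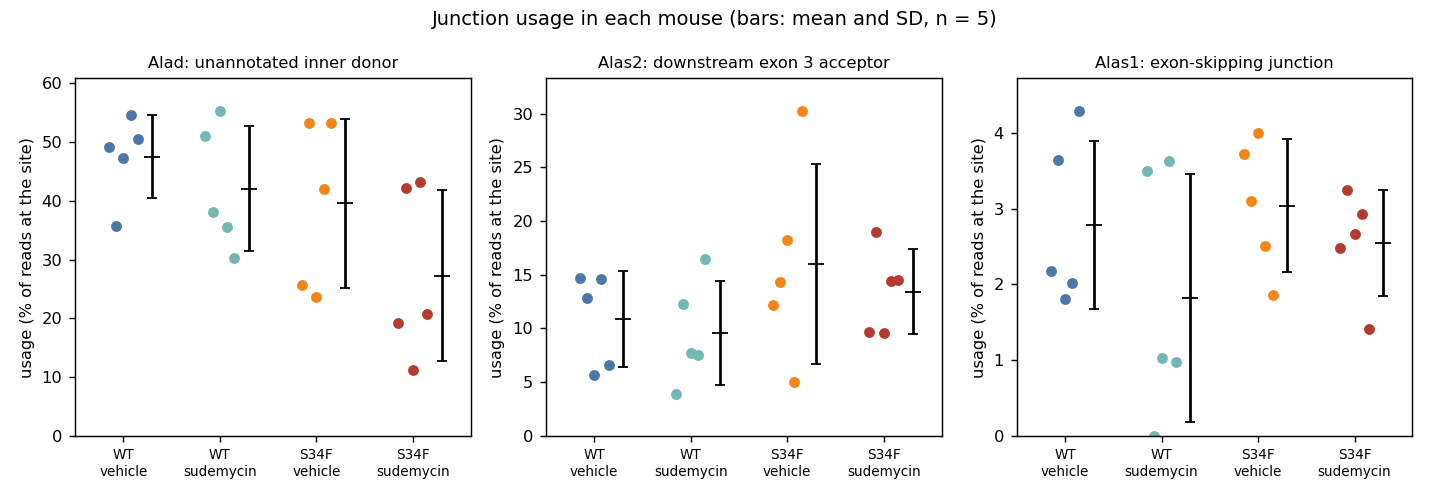
Usage (y axis, percent of reads at the splice site, from 0) of the unannotated *Alad* donor, the downstream *Alas2* acceptor and the *Alas1* exon-skipping junction in each mouse (points) of the 4 groups (x axis), with the group mean and SD (n = 5). *Alad* usage was 47.5% on average in U2AF1(WT) mice on vehicle and 27.3% in U2AF1(S34F) mice on the drug, with overlapping points.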

How the data were processed

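RNA of bulk bone marrow from 20 mice was depleted of ribosomal RNA and made into stranded libraries. Per the labels and the submitters' processing notes, reads were aligned to mm9 with TopHat2 2.0.8. The authors deposited gene counts and junction counts as whole numbers without normalization. The program that counted genes is not given in the sources used here. Gene counts summed to 41145892 to 62138138 and junction counts to 34384214 to 64813149 per mouse.

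Symbols and sites came from GENCODE vM1 on the same build, which matched 37205 of 37620 genes. Of the fixed lists, 20 of 21 transport genes, 7 of 8 globin genes and all other symbols were found. Each comparison was fitted on its own 10 mice in R 4.3.3 by the robust quasi-likelihood test of edgeR 4.0.16, after its expression filter and TMM scaling, with a prior count of 2 and Benjamini-Hochberg adjustment. Junction usage was tested at sites with a mean of at least 20 reads and a usage of at least 1%, with a quasi-binomial model moderated by limma 3.58.1. Both tests were run on data simulated from the comparison of the drug in U2AF1(WT) mice only. All simulated junctions had the same setting for spread between mice, and the outcome is not given here. Levels between genes were compared per kilobase of exon. Alternatives were DESeq2 1.42.0, other scaling and filters, 1 model of all mice, junction reads summed per gene, the replicate number as a block, and the omission of each mouse in turn. The members and lists were chosen with earlier results of these data known. All 9 members were named, and from each list up to 3 called genes per direction with a mean of at least 1 CPM were eligible. Some items are not reported here.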

Additional observations from a re-analysis of the deposited data

Results flagged for a closer look

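Among the 36 combinations of 9 transcripts and 4 groups, 1 held a mouse far from the others of its group. *Alas2* measured 37.5 CPM in mouse 1 of the vehicle-treated U2AF1(WT) group, where the other mice lay between 10.3 and 16.7 CPM, a gap larger than Dixon's test allows in a group of 5. Chance alone marks about 1 in 20 groups this way.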

How the results depend on the processing

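Counts of called heme synthesis genes moved with the settings. Under 1 model of all mice, 1 was called for the genotypes under vehicle, 2 for the drug in U2AF1(WT) mice (*Alas1* and *Ppox*) and 0 for the drug in U2AF1(S34F) mice. For the drug in U2AF1(S34F) mice, DESeq2 and a filter of at least 1 CPM in 5 mice called 2 (*Uros* and *Slc25a37*). An FDR under 5% and junction reads summed per gene called 0. Leaving out each mouse in turn gave 1 to 5 calls for the genotypes under vehicle, 0 to 2 for the drug in U2AF1(S34F) mice, 4 to 5 for the genotypes under the drug and 3 to 5 for mutation plus drug. In U2AF1(WT) mice on vehicle, the longest transcript in place of all exons gave 63.2 CPM per kb for *Alas1*, 3.98 for *Uros* and 18.3 for *Urod*. *Urod* then stood above *Fech* and *Ppox*, so its place in the order of levels depends on this choice. With the replicate block, fitted on same-numbered mice only, 3 genes were called for the genotypes under vehicle and 4 under the drug. Under vehicle *Alad* lost its call (adjusted p = 0.160, edgeR) and *Ppox* gained a call (0.0528). The same mice without the block, a fit added after seeing the data, gave 2 calls under vehicle. Same-numbered mice correlated between -0.11 and 0.21. Pairing by number was therefore not shown, and so few pairs cannot exclude it. Called junctions of these genes stayed at 0 under every alternative run. Over all genes, the 453 calls for the drug in U2AF1(WT) mice became 819 with DESeq2, 1072 in 1 model of all mice, 146 with junction reads and 243 at an FDR under 5%. The 1588 calls for the drug in U2AF1(S34F) mice became 788 in 1 model, 908 with junction reads and 826 at an FDR under 5%, and the 2 interactions became 116 with DESeq2, 10 with no filter and 8 with the CPM filter. The 459 to 3422 junctions called over all genes became 53 to 1423 with limma and 378 to 2382 with edgeR. For the genotypes, edgeR with the block on same-numbered mice called 825 under vehicle and 1396 under the drug. Without the block, on all 10 mice, edgeR called 1090 and 1046, and the main test 1788 and 1567. The block fits differ in their mice too, so the effect of the block alone was not tested.

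Differences near 0 changed sign. Between genotypes under the drug, *Alas2* was -0.028 with the block and -0.0024 in its unblocked mice, and *Uros* was -0.010 with the CPM filter, -0.16 with junction reads and -0.017 in the unblocked mice. *Fech* with mutation plus drug was 0.0026 with no filter. Leaving out 1 mouse gave *Fech* -0.045 to 0.14 for the genotypes under vehicle, -0.044 to 0.11 for the drug in U2AF1(WT) mice, -0.17 to 0.028 for the drug in U2AF1(S34F) mice, -0.13 to 0.0093 for the genotypes under the drug and -0.075 to 0.044 with mutation plus drug. For the drug in U2AF1(WT) mice it gave *Alad* -0.22 to 0.19 and *Cpox* -0.073 to 0.32. For the drug in U2AF1(S34F) mice it gave *Alas1* -0.050 to 0.086 and *Ppox* -0.067 to 0.026. It gave *Uros* -0.12 to 0.17 for the genotypes under the drug. Interactions ranged from -0.63 to 0.088 for *Alas2*, -0.22 to 0.049 for *Uros* and -0.066 to 0.074 for *Slc25a37*. The cause was not tested. None of these was called in the reported fits. Gene and junction tests are limited by 5 mice per group, and junction tests also by few reads per site.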
